A study of Mus musculus with 24 samples.

Results

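The excitatory-specific peaks were 3723 regions of open chromatin in the mouse amygdala that carried more signal in excitatory nuclei than in inhibitory and non-neuronal nuclei. They were taken from 266399 peaks of chr1 to chr19, out of 271433 in all, and were chosen by their ATAC counts summed over all libraries. Counts were scaled to a class total of 1000000 (CPM). A peak was a member when its CPM in the summed excitatory types, written Exc, were 2 or more and at least 4 times the CPM of the summed inhibitory types, written Inh, and of the summed non-neuronal types, written NN. Peaks with an Exc CPM of 2 or more numbered 107467, so members were a small part of the chromatin open in excitatory nuclei. The same rule turned to the other classes found 1228 inhibitory and 3896 non-neuronal peaks. The class contrast chose the members, so it is described and not tested.

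Amygdalae came from males of 2 inbred strains, DBA and BL6, that were 10 to 16 weeks old, and a library pooled about 2 animals. Neither strain carried a transgene or a treatment according to the labels. Single-nucleus ATAC sequencing, which cuts and tags open chromatin, was run on 2 DBA and 2 BL6 libraries, and single-nucleus RNA sequencing on 2 libraries of each strain. A DNA dye was used to sort the ATAC nuclei. RNA nuclei were sorted toward a target of 75% positive for NeuN, a marker of neurons. Of the RNA nuclei counted, NN types were 1316 of 2867 and 1888 of 6276 in DBA. In BL6 they were 2954 of 8079 and 2346 of 4426. The study's other 16 samples, methylation libraries, were not analysed here. ATAC libraries held 66535381 to 86927891 counts. Excitatory types gave 36554787 to 48552819 of these per library from 1850 to 3666 nuclei, while NN gave 1222826 to 1847735 from 67 to 167 nuclei.

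Excitatory neurons of the amygdala release glutamate and load it into vesicles with the transporters Slc17a7, which marks neurons of the cortical and basolateral nuclei, and Slc17a6, which marks many neurons of the medial and deeper nuclei. Chromatin that is open in 1 neuron class often lies far from genes, at enhancers, which bind transcription factors of that class, while the starts of genes tend to be open in many cell types. Among the factors of forebrain glutamatergic neurons are basic helix-loop-helix proteins such as Neurod2 and Neurod6, which bind short DNA words called E-boxes.

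Promoter sequence was at hand for few members, since 31 members overlapped a promoter window in the table used, which gives the 250 bases before and the 50 bases after a gene start in RefSeq. These 31 peaks overlapped 33 windows of 31 genes, and 2 of those genes, Neurod6 and Olfr120, have names that are not provisional. Neurod6 is shown because it is the only gene with a promoter member that was also on the list of excitatory identity genes. The other windows are those of the 3 genes with a provisional name whose member had the highest Exc CPM and whose 250 bases held the word CAGATG, an E-box bound by the NEUROD family. These 3 were chosen after their values were seen. The lines give the 250 bases before the start, 5′ to 3′ on the gene's strand, from RefSeq for the build GRCm38.p6. Capitals mark the NFI and T-box words, spelled out further on, in Neurod6 and the E-box, read on either strand, in the others.
Neurod6, chr6:55681264-55681513, minus strand: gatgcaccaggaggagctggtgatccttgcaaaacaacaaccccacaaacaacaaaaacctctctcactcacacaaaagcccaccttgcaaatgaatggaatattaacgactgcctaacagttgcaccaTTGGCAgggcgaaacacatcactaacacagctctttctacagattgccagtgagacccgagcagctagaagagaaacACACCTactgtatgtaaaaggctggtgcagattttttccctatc
Gm30092, chr4:17636192-17636441, minus strand: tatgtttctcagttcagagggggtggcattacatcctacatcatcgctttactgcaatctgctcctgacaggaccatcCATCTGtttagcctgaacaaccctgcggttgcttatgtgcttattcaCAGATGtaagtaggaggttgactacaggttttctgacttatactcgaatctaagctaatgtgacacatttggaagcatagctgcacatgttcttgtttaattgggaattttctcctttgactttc
Gm42400, chr7:81731211-81731460, plus strand: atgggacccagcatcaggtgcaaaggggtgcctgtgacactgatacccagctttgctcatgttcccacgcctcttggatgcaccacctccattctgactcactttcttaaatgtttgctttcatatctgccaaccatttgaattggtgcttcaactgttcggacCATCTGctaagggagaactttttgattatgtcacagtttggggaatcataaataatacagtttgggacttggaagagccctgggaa
Gm40750, chr10:98806887-98807136, plus strand: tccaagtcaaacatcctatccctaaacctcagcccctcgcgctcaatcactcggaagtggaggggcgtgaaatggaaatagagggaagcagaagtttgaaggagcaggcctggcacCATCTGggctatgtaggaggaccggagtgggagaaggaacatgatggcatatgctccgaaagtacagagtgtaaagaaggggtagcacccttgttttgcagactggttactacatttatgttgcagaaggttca

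The peak over the Neurod6 start, chr6:55680957-55681575, had 5.65 and 5.94 CPM in the excitatory nuclei of the DBA libraries and 6.05 and 5.46 CPM in those of the BL6 libraries. Its inhibitory signal was 0.57 and 0.705 CPM in DBA and 0.626 and 0.932 CPM in BL6, below every excitatory value. Among excitatory types the peak was highest in Exc-Strip2, at 12.5 CPM, and Exc-Ebf2, at 10.3 CPM, and it stood at 0.765 CPM in Exc-Abi3bp. The peak at the Gm42400 start, chr7:81730928-81731659, had 13.4 and 12.8 CPM in DBA excitatory nuclei and 10.5 and 9.68 CPM in BL6 excitatory nuclei. That peak was at 19.5 CPM in Exc-Tafa1 and at 1.32 CPM in Exc-Vwa5b1, so it too was uneven among excitatory types.

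The E-box letters CAGATG, searched on both strands, were in 15 of the 33 windows that members overlapped, or 45.5%. They were in 12.2% of the 15663 windows overlapped by peaks with an Exc CPM of 2 or more and in 17.2% of all 31396 windows. The windows at members also had a lower G and C content, with a median of 42.3% against 61% at the peaks with an Exc CPM of 2 or more and 53% over all windows, and its part in the E-box share was not tested. The AP-1 word TGANTCA was in 5 of the 33 windows, or 15.2%, against 7.84% of all windows. The CRE word TGACGT, bound by CREB, was in none of the 33 and in 7.57% of all windows. The other words searched, with the share of the 33 windows and of all windows, were MEF2 as CTATTTA at 9.09% and 2.93%, a T-box word as AGGTGT at 18.2% and 13.8%, and a nuclear receptor word as AGGTCA at 12.1% and 16.3%. An NFI word as TTGGCA was in 18.2% and 14.1%, an EGR site as GCGTGGG in 3.03% and 5.08%, and an RFX word as GTTGCCA in 3.03% and 4.41%. A homeodomain site as TAATTA was in 3.03% and 5.26%, and a SOX site as ACAAAG in 15.2% and 18.6%. These are matches of letters in few windows, some of them overlapping, and they leave out the members far from gene starts and the 137 members of chr18, for which no window was used.

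Members had a median of 3.79 CPM in Exc, with a range of 2.00 to 27.2, against a median of 0.621 CPM in Inh and 0.651 CPM in NN. The NN value rested on a median of 4 counts, and 101 members had no NN count, which allows up to 0.489 CPM (3 counts). As a description of that depth, Exc was at least 4 times the upper end of the exact 95% Poisson interval of NN in 188 members. For a member with no NN count that end is above 3 counts. The inhibitory side was better covered, with a median of 79 counts. Exc was above Inh in each of the 4 libraries in 3722 members, and at least 4 times Inh in each in 2296, or 61.7%. These are the counts whose sum chose the members, so both figures are a description. Just inside the limit, chr7:74970052-74970838 was at 2.61 CPM in Exc and 0.652 in Inh, chr6:141162325-141162880 at 2.67 and 0.668 CPM, and chr1:128332611-128333437, at an end of Mcm6, at 3.91 CPM in Exc and 0.977 in NN. Just outside it, chr12:89310035-89310611 in Nrxn3 was at 3.05 CPM in Exc and 0.762 in Inh, chr11:35379403-35379732 in Slit3 at 3.27 and 0.817 CPM, and chr1:193930805-193931714 at 6.76 and 1.69 CPM. Peaks on both sides of the limit thus had nearly the same values.

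The label holds for excitatory neurons as a sum but not for excitatory neurons as a whole. In RNA the excitatory sum had less of the genes that mark inhibitory nuclei than the inhibitory sum: Gad1 and Gad2, which make GABA, averaged 2.97 and 5.86 CPM in the excitatory sum and 169 and 229 CPM in the inhibitory sum. Over the 7 inhibitory markers the summed RNA was 242 to 338 CPM in excitatory nuclei and 1339 to 1475 CPM in inhibitory nuclei, and over the 18 non-neuronal markers it was 290 to 344 CPM in excitatory and 4046 to 5088 CPM in non-neuronal nuclei. Over the 7 excitatory markers the summed RNA was 779 to 930 CPM in excitatory and 410 to 490 CPM in inhibitory nuclei. Exc-Tfap2c, at 283 to 336 CPM, lay below the inhibitory nuclei in that sum, so these markers did not set it apart. The type Exc-Abi3bp had 853 to 945 CPM of the inhibitory markers, with Meis2, a factor of inhibitory neurons, at 887 CPM, while its Gad1 and Gad2 averaged 3.86 and 6.33 CPM. Slc17a7 averaged 317 CPM in Exc-Tafa1, 289 in Exc-Strip2, 217 in Exc-Ebf2, 69.5 in Exc-Vwa5b1, 20 in Exc-Abi3bp and 2.21 in Exc-Tfap2c, and Slc17a6 averaged 11.8, 29.6, 61.4, 89.5, 133 and 133 CPM in the same order. Members followed the order of these Slc17a7 means in the level of the types, though the same ATAC counts, summed, chose the members. The Exc-Strip2 mean included RNA libraries of 1 and 3 nuclei. In the DBA library with 1 such nucleus its Slc17a7 was 366 CPM, against 332 CPM in Exc-Tafa1. The median of members was 5.77 CPM in Exc-Tafa1, 5.15 in Exc-Strip2, 2.43 in Exc-Ebf2, 1.12 in Exc-Vwa5b1, 0.874 in Exc-Abi3bp and 0.789 in Exc-Tfap2c. The 8 inhibitory types had medians of 0.458 to 0.666 CPM.

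By count, 3665 members, or 98.4%, were at least 4 times the inhibitory sum in Exc-Tafa1 and 2802, or 75.3%, in Exc-Strip2. In Exc-Ebf2 these were 1686, or 45.3%. In Exc-Vwa5b1, which gave the second most counts, they were 659, or 17.7%, and in Exc-Abi3bp 302, or 8.11%. Exc-Tfap2c had 363, or 9.75%, and only 20 members passed in all 6 types. At or below the inhibitory sum lay 1451 members in Exc-Tfap2c, 1114 in Exc-Abi3bp, 716 in Exc-Vwa5b1, 203 in Exc-Ebf2, 168 in Exc-Strip2 and 1 in Exc-Tafa1. The highest of the 6 values was that of Exc-Tafa1 in 1829 members, Exc-Strip2 in 1465, Exc-Ebf2 in 232, Exc-Vwa5b1 in 142, Exc-Abi3bp in 35 and Exc-Tfap2c in 20. Depth bears on these counts: Exc-Tafa1 held 87344740 of the 172869834 excitatory counts, so it weighs most in a sum, while Exc-Strip2 held 5823025. Taking the mean of the types' CPM in place of the sum gave 2320 peaks, of which 1320 were members, and among those 2320 the share at least 4 times the inhibitory sum was 81.3% in Exc-Tafa1, 90.8% in Exc-Strip2, 19.5% in Exc-Vwa5b1 and 12.8% in Exc-Abi3bp.

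**Figure D1:**
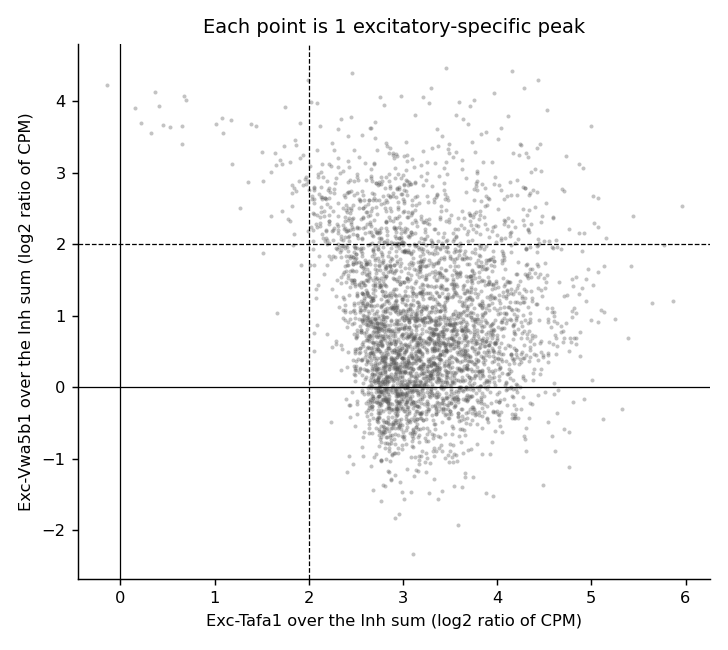
Each point is 1 of the 3723 excitatory-specific peaks, with the log2 ratio of its CPM in Exc-Tafa1 to the inhibitory sum on the x axis and the same ratio for Exc-Vwa5b1 on the y axis. Solid lines mark equal levels and dashed lines 4-fold; most points lie right of the vertical dashed line, where 3665 peaks are, and below the horizontal one, above which are 659.

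The share of a type's ATAC counts that fell in members rests on the counts that chose them and is a description. As a mean over libraries it was 2.60% ± 0.143 in Exc-Tafa1, 2.54% ± 0.19 in Exc-Strip2, 1.26% ± 0.0661 in Exc-Ebf2, 0.766% ± 0.0476 in Exc-Vwa5b1, 0.546% ± 0.0367 in Exc-Abi3bp and 0.476% ± 0.128 in Exc-Tfap2c (SD, n = 4 libraries). Over all libraries summed, Exc-Strip2 came first with 2.65%, against 2.59% in Exc-Tafa1. The ranges of Exc-Tafa1 and Exc-Strip2 overlapped, as did those of Exc-Abi3bp and Exc-Tfap2c. Inhibitory types lay between 0.241% ± 0.037 in Inh-Tshz1 and 0.343% ± 0.0353 in Inh-Drd2. Microglia, NN-MGC, had 0.49% ± 0.16, above the 0.24% ± 0.0596 of astrocytes, NN-Astro, but from 97 nuclei in all. A type outside the 3 classes, Neuronal-Aldoa-Cst3, had 77 of 67631 counts in members, or 0.114% with an exact 95% binomial interval of 0.0899% to 0.142% for counting error alone, from 9 nuclei, and members in Pde10a (chr17:8702213-8702908) and near Sh3gl2 (chr4:85174804-85175855), among the highest there, had 2 counts each. Read counts of 1 nucleus are not known to be independent molecules, so such intervals and floors cover counting error only.

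**Figure D2:**
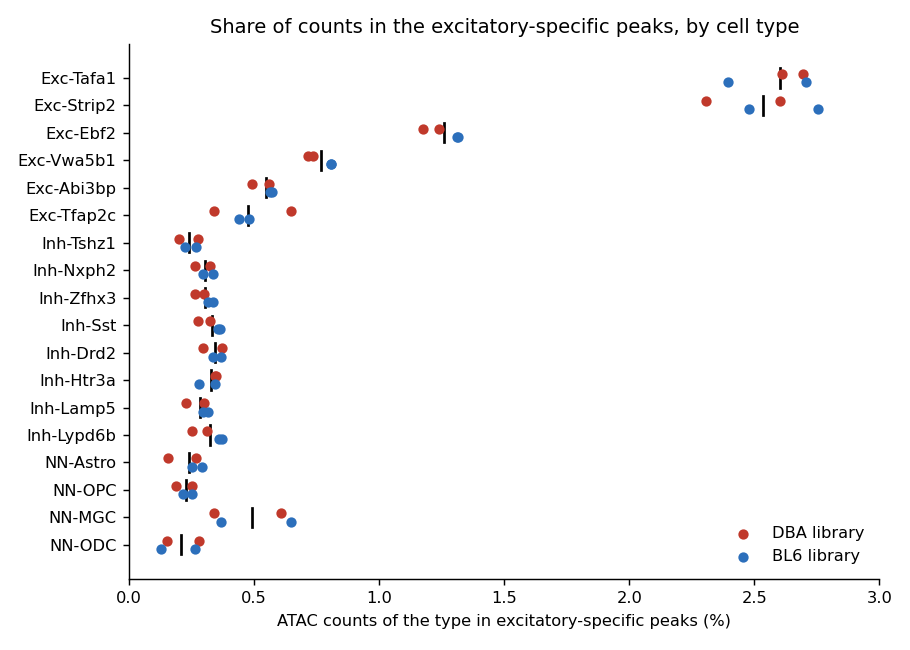
The percentage of each cell type's ATAC counts that lies in the 3723 excitatory-specific peaks, with 1 point per library (DBA above, BL6 below) and a bar at the mean of the 4. Exc-Tafa1 and Exc-Strip2 lie above 2%, Exc-Ebf2 near 1.26%, and the means of Exc-Vwa5b1, Exc-Abi3bp and Exc-Tfap2c lie below these and above those of the inhibitory types; the mean of NN-MGC, 0.49%, is above the 0.476% of Exc-Tfap2c.

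The members with the widest ratio of 1 excitatory type to the next were picked for that ratio and are extremes of the set. A peak in Gpc5, a glypican of the cell surface, at chr14:116096039-116096852 had 5.50 and 4.45 CPM in the Exc-Tafa1 nuclei of DBA and 7.59 and 4.67 CPM in those of BL6, and at most 0.515 CPM in any other excitatory type. The peak chr12:59343465-59344164, 121504 bases from Fbxo33, had 5.18 and 3.95 CPM in DBA and 5.08 and 3.26 CPM in BL6 in Exc-Tafa1 and at most 0.39 CPM elsewhere. Over all Exc-Tafa1 nuclei they were at 5.52 and 4.33 CPM, below the 5.77 CPM of the median member in that type.

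Exc-Strip2 led at chr15:69222174-69222726, 120380 bases from Khdrbs3, with 18.4 and 25 CPM in DBA and 25.9 and 31.2 CPM in BL6, against 1.96 CPM in the next type. It also led at chr14:91025123-91025810, in a stretch 1987890 bases from Pcdh9, with 0 and 31.7 CPM in DBA and 28.9 and 32.3 CPM in BL6. The value of 0 came from the DBA library with 13 Exc-Strip2 nuclei. Exc-Vwa5b1 led at chr2:56508181-56508700, 598130 bases from Nr4a2, with 8.45 and 11.6 CPM in DBA and 9.64 and 10.5 CPM in BL6, against 0.838 CPM in the next type. Its other leading member, chr18:12542966-12543503 in Lama3, a laminin chain, had 6.57 and 9.76 CPM in DBA and 11.5 and 9.83 CPM in BL6. In Exc-Tafa1, the type with the most counts, these 4 peaks had 0.744 to 2.55 CPM.

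Exc-Ebf2 and Exc-Abi3bp had no member that stood as far apart. The widest ratio of Exc-Ebf2 to the next type was 3.05, at chr5:3269441-3270143, where it had 6.06 and 8.39 CPM in DBA and 12.1 and 6.36 CPM in BL6. The next was 2.70, at chr14:33474135-33474818 near Frmpd2. For Exc-Abi3bp the widest ratio was 3.85, at chr14:81013920-81014317, with 9.71 and 12.6 CPM in DBA and 12.3 and 8.31 CPM in BL6, and then 2.42 at chr4:93393416-93393911 near Tusc1. In Exc-Tfap2c, the type with the fewest counts, no member had the counts needed to be named.

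The 8 members with the most signal varied in their levels among types. The highest, chr2:168440604-168441703, lies 34707 bases from Nfatc2, a calcium-regulated transcription factor, and had 27.3 and 27.3 CPM in DBA and 27.1 and 27.1 CPM in BL6. It was at 37.7 CPM in Exc-Tafa1, 38.6 in Exc-Ebf2, 13.4 in Exc-Vwa5b1 and 10.1 in Exc-Abi3bp, against 4.2 CPM in Inh. A peak in Cdk14, a cyclin-dependent kinase, at chr5:4992812-4993659 had 24.3 and 24.3 CPM in DBA and 25.7 and 23.9 CPM in BL6. It was about level in Exc-Tafa1, at 28 CPM, and Exc-Vwa5b1, at 28.2 CPM. The peak chr7:72047599-72048843 near Mctp2 was higher in Exc-Vwa5b1, at 37.1 CPM, than in Exc-Tafa1, at 20.2 CPM. The other 5 of the 8 highest, at an end of Angel1 (chr12:86699620-86700609), in Zfp469 (chr8:122084502-122085435) and outside genes at chr13:97633501-97634823, chr1:47192657-47193743 and chr4:28298763-28299592, had 22.2 to 24.2 CPM in Exc. None of the 8 differed between strains at an adjusted p under 0.05 in edgeR's test.

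Members were distal. Of the 3723, 114, or 3.06%, lay within 2 kb of an end of a protein-coding gene, against 18.2% of the other peaks with an Exc CPM of 2 or more and 10.1% of all peaks of chr1 to chr19. Members outside genes numbered 2502, or 67.2%, against 36.4% and 42%, and members inside genes and farther from their ends 1107, or 29.7%, against 45.4% and 47.9%. Those outside genes lay a median of 127860 bases from the nearest protein-coding gene, against 65032 bases over all peaks outside genes. A window of 10 kb put 13.2% of members at a gene end, against 34.3% of the other peaks with an Exc CPM of 2 or more. The median width of members was 634 bases, against 793 bases for those other peaks. Members were 1.07% of the peaks of chromosome 7 and 1.70% of those of chromosome 3, the lowest and highest shares of the 19 autosomes.

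**Figure D3:**
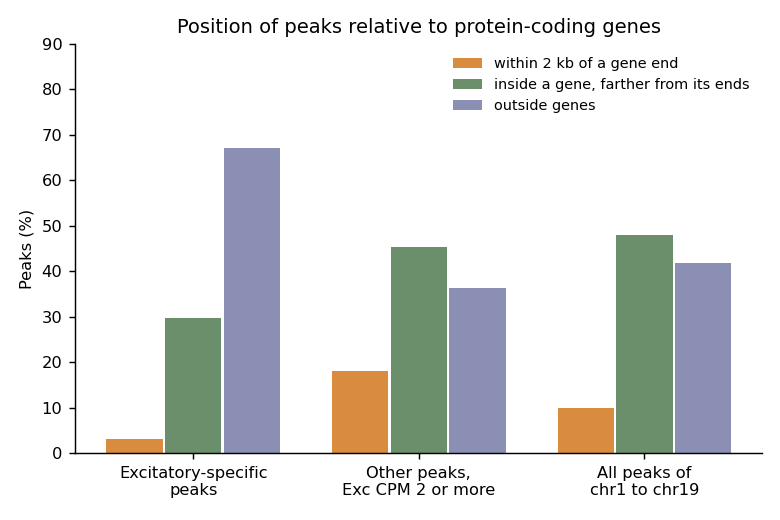
Percentage of peaks within 2 kb of an end of a protein-coding gene, inside a gene and farther from its ends, and outside genes, for the excitatory-specific peaks, the other peaks with an Exc CPM of 2 or more, and all peaks of chr1 to chr19. Of the excitatory-specific peaks 67.2% lie outside genes and 3.06% at gene ends, against 36.4% and 18.2% of the other peaks with an Exc CPM of 2 or more.

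Members were assigned to a gene when they lay inside it or within 2 kb of its ends, which gave 932 genes with a member, of 17351 genes with any peak, or 5.37%. Of these, 741 had 1 member and 16 had 5 or more. Fhit, a diadenosine hydrolase in a large gene on a fragile site, had 10. Ptprd, a presynaptic receptor phosphatase, and Arhgap15, which inactivates the GTPase Rac, had 7 each. Car10, a ligand of neurexins, Dgkb, a diacylglycerol kinase, Celf2, an RNA-binding splicing factor, and Fstl4 and Cntnap5a had 5 each, as did Slit3 and Robo2, a ligand and receptor of axon guidance. Large genes hold more peaks, and each of these had 27 to 105 peaks with an Exc CPM of 2 or more.

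RNA of the genes with a member was a readout the rule did not use, although the authors' classes were built from these nuclei. A gene was counted as higher when its CPM in excitatory nuclei was over 2 times that in inhibitory nuclei in each of the 4 RNA libraries. Of 858 genes with a member that were counted, 60, or 6.99%, were higher in excitatory nuclei, against 2.19% of all 21073 genes, and 22, or 2.56%, were lower, against 1.95%. Among 188 genes with 2 or more members 9.57% were higher, and among the 16 with 5 or more 4 were. Genes with a peak of Exc CPM 2 or more were higher in 1.63% of 14149. The median log2 ratio of excitatory to inhibitory RNA was 0.13 for genes with a member and -0.05 for all genes. Most genes with a member passed in neither direction.

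The 4 genes with 5 or more members that passed were Ptprd, Arhgap15, Car10 and Slit3. Arhgap15 had 38.3 and 39.2 CPM in DBA and 48.8 and 54.1 CPM in BL6 excitatory nuclei, and averaged 8.31 ± 1.89 CPM in inhibitory nuclei (SD, n = 4). Slit3 had 798 and 669 CPM in DBA and 690 and 863 CPM in BL6 excitatory nuclei, against a mean of 166 ± 16.2 CPM in inhibitory nuclei (SD, n = 4). Fhit, with the most members, averaged 190 ± 79.4 CPM in excitatory and 196 ± 88.5 CPM in inhibitory nuclei (SD, n = 4), so its RNA did not follow its member count. Dgkb averaged 778 ± 125 and 999 ± 74.6 CPM in the same order (SD, n = 4), the opposite direction to its 5 members.

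Set against Exc-Vwa5b1, where 659 members were at least 4 times the inhibitory sum, Exc-Tafa1 gave a similar picture. This comparison was chosen after the type medians were seen. Of 816 genes with a member, 82, or 10.0%, were over 2 times higher in Exc-Tafa1 than in Exc-Vwa5b1 in each library, against 3% of all 17948 genes, and 41, or 5.02%, were lower, against 3.78%. Celf2 averaged 6565 CPM in Exc-Tafa1 and 2656 CPM in Exc-Vwa5b1. Sema5a, a guidance protein with 3 members, ran the other way, at 33.6 CPM in Exc-Tafa1 and 225 CPM in Exc-Vwa5b1.

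Of 21 genes of excitatory identity with a peak 2 held a member, or 9.52%, against 5.37% of all genes with a peak, and members were 0.649% of the list's peaks, against 1.40% of all peaks, although the RNA of 12 of the 21 was higher in excitatory nuclei. Neurod6 is described above. Its RNA was 7.26 and 14.6 CPM in DBA and 9.41 and 8.1 CPM in BL6 excitatory nuclei, against a mean of 0.625 ± 0.362 CPM in inhibitory nuclei (SD, n = 4). Slc17a7, Slc17a6, Tbr1 and Camk2a held none. No member lay at any of 23 inhibitory identity genes or 15 immediate early genes, against 5.37% of all genes with a peak, which is about 1 gene in a list of either size. Of 19 glial and vascular genes 2 held a member, Flt1 with chr5:147671178-147672520 at 6.38 CPM in Exc, and P2ry12 with chr3:59230660-59231257 at 6.02 CPM in Exc. The P2ry12 peak also lies in Med12l, which overlaps P2ry12, so neither the peak nor the reads of P2ry12, at a mean of 154 CPM of RNA in excitatory nuclei, can be given to 1 of the genes.

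Genes of synaptic adhesion and axon guidance held more members than these. Of 17 adhesion genes with a peak 8 held 26 members, or 1.33% of the list's peaks, and of 31 guidance genes 13 held 27, or 1.47%, while members were 1.40% of all peaks. Their larger share of genes therefore went with more peaks per gene. In Ptprd the highest member, chr4:77647312-77648331, had 9.40 and 8.32 CPM in DBA and 9.33 and 11.1 CPM in BL6. In Cadm2, an adhesion molecule, chr16:67001301-67002223 had 16 and 14.3 CPM in DBA and 14.1 and 13.9 CPM in BL6, and was at 23.8 CPM in Exc-Tafa1 and 3.19 CPM in Exc-Vwa5b1. In Lrrc4c, a netrin-G ligand, chr2:96949330-96950110 was shared by both types, at 12.7 and 13.7 CPM. Cntnap2 had 5 members, the highest chr6:46704377-46706275 at 7.43 CPM in Exc, although its RNA averaged 1908 CPM in excitatory and 3209 CPM in inhibitory nuclei.

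On the guidance list, the ligand Slit3 had its highest member at chr11:35679576-35680539, with 10.4 and 11.5 CPM in DBA and 11.9 and 11 CPM in BL6. Its receptor Robo2 had chr16:75155270-75156282, which was more even among types, at 8.83 CPM in Exc-Tafa1, 11.4 in Exc-Ebf2 and 11.6 in Exc-Vwa5b1. The ephrin receptor Epha7 had chr4:28895195-28896100 at 8.93 CPM in Exc, and Sema5a had chr15:32690494-32691385 at 6.70 CPM. The Sema5a member was at 10.3 CPM in Exc-Tafa1 and 1.80 CPM in Exc-Vwa5b1, opposite to its RNA.

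In the lists of receptors, scaffolds and channels the share of genes with a member was above the 5.37% of all genes, while the share of peaks was below the 1.40% of all peaks. It was 19.05% of genes and 0.323% of peaks for glutamate receptors, 21.4% and 0.312% for scaffolds, and 25% and 1.05% for potassium channels. Of 21 glutamate receptor genes 4 held 1 member each: the metabotropic receptors Grm8 (chr6:27370596-27371456), Grm3 (chr5:9663289-9663751) and Grm7 (chr6:111445118-111445661), and the kainate receptor subunit Grik4 (chr9:42917723-42918321), at 8.94, 3.17, 2.66 and 5.92 CPM in Exc. The Grm8 member reached 28.3 CPM in Exc-Strip2, where Grm8 RNA averaged 10.7 CPM against 589 CPM in Exc-Tafa1; 2 of the 4 Exc-Strip2 RNA libraries had 3 nuclei or fewer. Of 14 scaffold genes 3 held 1 member each, Shank2 (chr7:144012945-144013552), Dlg2 (chr7:92371482-92371915) and Dlgap4 (chr2:156632743-156633004), at 5.35, 4.87 and 2.91 CPM. Of 20 voltage-gated potassium channel genes 5 held 7 members. Kcnv1, a silent modifier subunit, held chr15:45102995-45103857 at 8.35 CPM, and its RNA was higher in excitatory nuclei in every library, at a mean of 14.1 ± 2.47 CPM against 5.47 ± 0.604 CPM in inhibitory nuclei (SD, n = 4). Kcnd3 of the A-type current held chr3:105608687-105609259 at 6.98 CPM, and Kcnq3 and Kcnq5 of the M-current held chr15:66199403-66200191 at 6.30 CPM and chr1:21684330-21684995 at 5.95 CPM as the higher of 2 members each.

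Genes that name the authors' types did not always hold members open in that type. Tafa1, a secreted protein, had 4 members, and the highest, chr6:96243950-96244764, was at 23 CPM in Exc-Tafa1 and 6.06 in Exc-Vwa5b1. The member in Vwa5b1, chr4:138582413-138582722, was at 5.59 CPM in Exc-Tafa1 and 1.45 CPM in Exc-Vwa5b1. The member in Abi3bp, chr16:56503707-56504480, was at 5.15 CPM in Exc-Tafa1 and 1.13 CPM in Exc-Abi3bp, while Abi3bp RNA averaged 27 CPM in Exc-Tafa1 and 192 CPM in Exc-Abi3bp.

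The rule summed both strains, so strain labels did not choose members, but a peak could pass through the strain where it was higher. Applied to each strain alone, the rule gave 4580 peaks in DBA and 3254 in BL6, with 1706 in both. What this adds to the calls below was not tested. Strains were compared by edgeR's quasi-likelihood test with Benjamini-Hochberg adjustment over 269657 peaks. By it, 297 of the 3723 differed between DBA and BL6 in the excitatory sum at an adjusted p under 0.05. That is 7.98%, against 4.93% of all peaks tested and 5.73% of tested peaks with an Exc CPM of 2 or more. Of the 297, 214 were higher in DBA and 83 lower, where all peaks tested gave 2.53% higher and 2.4% lower. At an unadjusted p under 0.05 there were 943 members. The median log2 fold change of DBA over BL6 was 0.10 for members, 0.04 for peaks with an Exc CPM of 2 or more and 0.00 for all peaks. The called members had a median size of 0.63 on the log2 scale for those higher and 0.74 for those lower, and 29 and 23 of them exceeded 2-fold.

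The balance of types differed between libraries along with this. Exc-Tafa1 gave 51.8% and 54.7% of the excitatory counts in DBA and 45.3% and 51.2% in BL6, and Exc-Strip2 gave 0.644% and 4.48% in DBA and 6.68% and 1.78% in BL6. The inhibitory nuclei had 0.245% and 0.309% of their counts in members in DBA and 0.288% and 0.319% in BL6. Their part in the split of 214 and 83 was not tested. Within Exc-Tafa1 alone, 164 of 3721 members tested were called, 107 higher and 57 lower in DBA, against 3.28% of all peaks there, 1.64% higher and 1.64% lower, and the median was 0.10. Within Exc-Vwa5b1, 71 of 2119 were called, 24 higher and 47 lower, against 3.14% of all peaks there, 1.5% higher and 1.65% lower, and the median was -0.14. In Exc-Ebf2 13 of 1362 were called, 3 higher and 10 lower, against 0.772%, and the median was -0.12. In Exc-Abi3bp 12 of 1325 were called, 8 higher and 4 lower, against 1.51%, with a median of -0.09. In Exc-Strip2 5 of 1284 were called, 2 higher and 3 lower, against 0.41%, with a median of -0.05. Of the types tested, only Exc-Tafa1 had a positive median. No member was deep enough to be tested in Exc-Tfap2c. Scaling to total counts gave 150 higher and 95 lower in the excitatory sum, with a median of -0.05 over all peaks, so the size of the split depends on the scaling. Leaving out library 3 of BL6, as the deposited files number it, left 107 members called, 58 higher and 49 lower. Leaving out library 2 of BL6 left 148, with 108 higher and 40 lower, and leaving out library 2 of DBA gave 528. In Exc-Tafa1 leaving out library 3 of BL6 left 33 higher and 35 lower, so the excess toward DBA there was lost without that library. Leaving out library 3 of DBA gave 239 higher and 60 lower in Exc-Tafa1, leaving out library 2 of DBA 208 and 147, and leaving out library 2 of BL6 71 and 25.

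**Figure D4:**
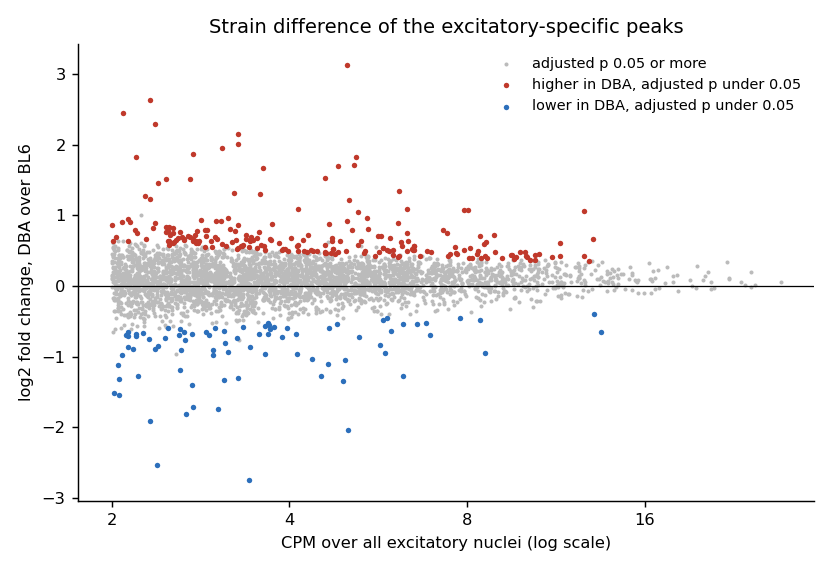
Log2 fold change of DBA over BL6 in excitatory nuclei against CPM over all excitatory nuclei (log axis) for the excitatory-specific peaks, with the 214 higher and 83 lower in DBA at an adjusted p under 0.05 in colour; the peak in Snrpn with no DBA count is off the scale. The grey points are shifted slightly above 0, with a median of 0.10 over all members.

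The member most raised in DBA was chr14:71490927-71491589, 511087 bases from Gfra2, a receptor subunit for the growth factor neurturin. It had 8.98 and 10.4 CPM in DBA and 1.23 and 1.05 CPM in BL6 excitatory nuclei, with a log2 fold change of 3.13 ± 0.16 (SE) and an adjusted p of 1.3e-27 in edgeR's test. The strains did not overlap, and 3 excitatory types called it. In inhibitory nuclei its values were 0.679 and 1.37 CPM in DBA and 0.547 and 0.685 CPM in BL6.

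The peak chr1:171912864-171913455, 4003 bases from Slamf6, an immune cell receptor, had 5.72 and 5.55 CPM in DBA and 1.29 and 1.32 CPM in BL6, a log2 fold change of 2.16 ± 0.18 (SE). The peak chr13:67898204-67899169 had 8.19 and 8.75 CPM in DBA and 2.74 and 2.18 CPM in BL6, or 1.83 ± 0.15 (SE) on the log2 scale. The peaks chr2:122621724-122622219 near Spata5l1 and chr12:26666266-26667327 rose by 1.72 and 1.70 on the log2 scale. In each of these the DBA values lay above both BL6 values, and each was called in 2 or 3 excitatory types.

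The sixth was chr19:23370867-23371278 in Mamdc2, with 3.47 and 4.08 CPM in DBA and 0.81 and 0.618 CPM in BL6, a log2 fold change of 2.44 ± 0.22 (SE). It was uneven between types: Exc-Tafa1 had 5.31 and 5.20 CPM in DBA and 0.532 and 0.282 CPM in BL6, and Exc-Vwa5b1 had 1.57 and 2.35 CPM in DBA and 1.10 and 1.36 CPM in BL6. A fit of both types, with the library as a block, was added after the data were seen. There the strain difference of the Mamdc2 peak was larger in Exc-Tafa1 by 3.09 on the log2 scale, with an adjusted p of 0.00038 in edgeR's test. By the same test, 20 of the 3723 members had a strain difference that differed between these types, 17 of them more toward DBA in Exc-Tafa1, against 0.164% of all peaks tested, and 541 had an unadjusted p under 0.05.

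Among members lower in DBA, the peak chr7:60271326-60272278 in Snrpn, an imprinted gene of the spliceosome, had no count in the excitatory nuclei of either DBA library and 5.02 and 4.70 CPM in BL6. With 3 counts over the DBA libraries as the floor it was at least 127-fold lower in DBA. It was also without a count in DBA inhibitory nuclei, against 28 and 51 counts in BL6. Snrpn RNA was 174 and 192 CPM in DBA and 150 and 151 CPM in BL6 excitatory nuclei. Its strain difference had an adjusted p of 0.067 in edgeR's test. RNA of the gene was thus counted in both strains, which does not show that the peak's interval is present in DBA. Whether this interval is present in the DBA genome, and whether DBA reads of it map to the build used, was not tested. The same holds for the other members lower in DBA.

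The peak chr1:128360590-128360931, 885 bases from Mcm6, a subunit of the replicative helicase, had 0.546 and 1.09 CPM in DBA and 5.43 and 5.75 CPM in BL6, and fell by 2.75 on the log2 scale. A peak in Cacna2d1, a calcium channel subunit, at chr5:16362838-16363486 had 0.617 and 0.657 CPM in DBA and 3.68 and 4 CPM in BL6, and fell by 2.54. Cacna2d1 RNA was close, at 746 and 635 CPM in DBA and 771 and 789 CPM in BL6. The remaining ones fell by 2.04 at chr4:140448759-140449427 and 1.74 at chr4:140423617-140424140, both nearest to Arhgef10l, and by 1.82 at chr5:73604679-73605319 near Lrrc66. The DBA values of all 6 lay below both BL6 values.

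**Figure D5:**
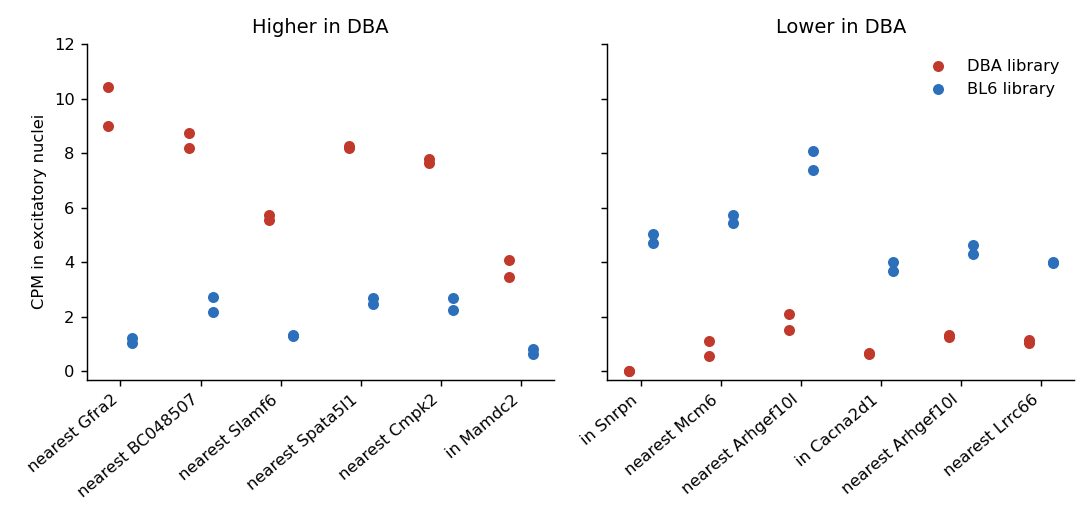
CPM in excitatory nuclei per library for the 6 excitatory-specific peaks higher in DBA and the 6 lower in DBA with the smallest p, named by the gene they lie in or the nearest protein-coding gene, DBA left of BL6. In all 12 the libraries of the strains do not overlap, and the Snrpn peak is at 0 in both DBA libraries.

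Genes at called members numbered 109, and 90 had RNA deep enough in both strains to be tested. Of these 13, or 14.4%, were called, 6 higher and 7 lower in DBA, against 8.9% of all 17979 genes tested by edgeR with Benjamini-Hochberg adjustment. The 13 genes had 15 called members, of which 10 moved in the direction of the RNA and 5 in the opposite one. Mcm6 RNA fell with its peak, to 0.484 and 1.07 CPM in DBA, against 2.24 and 2.61 CPM in BL6. Chia1, an acidic chitinase, fell to 1.26 and 0.932 CPM in DBA, against 3.93 and 3.81 CPM in BL6, and its member chr3:106131350-106132503 fell by 0.72 on the log2 scale. Excitatory RNA libraries held 10328730 to 25937979 counts, so the RNA values of Mcm6 and Chia1 rest on few counts. Dcdc2c, a doublecortin-domain gene, fell to 3.87 and 2.14 CPM in DBA, against 7.83 and 7.44 CPM in BL6, with both of its called members lower.

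Gpc5, Pappa2, Ssbp3, Fhod3 and Acss3 were higher in DBA in RNA and at their called member. Gpc5 had 327 and 298 CPM in DBA and 191 and 204 CPM in BL6, and Pappa2, a protease that frees insulin-like growth factors, had 53.1 and 56 CPM in DBA and 35.6 and 36.8 CPM in BL6. Fhit RNA was 265 and 253 CPM in DBA and 124 and 119 CPM in BL6, while 1 of its called members, chr14:10626582-10627185, fell by 1.10 on the log2 scale and another, chr14:11084916-11086029, rose by 0.48. Cnih3, an auxiliary subunit of AMPA receptors, Erich3 and Col23a1 had lower RNA and a higher member in DBA. In each of these genes the RNA values of the strains did not overlap.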

How the data were processed

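The ATAC and RNA values are counts per peak or gene that the authors deposited as sums for every cell type in every library, per the file headers, along with counts of nuclei. The submitters' processing notes list, for ATAC, Cell Ranger ATAC 2.0.0 and Seurat, for RNA, Cell Ranger 6.0.2 with Seurat 4.0.5, and the build mm10, the assembly of a C57BL/6J mouse. Filters on nuclei, the treatment of doublets, the peak caller and the unit of an ATAC count are not given in the sources used here. Cell types are the authors' own. Columns number the libraries 2 and 3 and sample titles 1 and 2, so a column was placed by the strain in its name, and which of the strain's 2 samples it belongs to is not known. Whether peak starts count from 0 or 1 is not stated.

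Class sums were scaled to CPM of the class total over the whole table. Strains were compared with edgeR 4.0.16 in R 4.3.3 (TMM, filterByExpr with a minimum count of 10, robust quasi-likelihood test, Benjamini-Hochberg adjustment over all features tested, calls under 0.05), on 2 pooled libraries a strain; RNA genes needed 10 counts in each strain. Nothing in the labels says whether libraries of 1 strain shared animals, so p-values measure the spread between these libraries. Replicate libraries differed beyond sampling noise (chi-square per degree of freedom 1.58 to 6.50). The fit was also checked on simulated counts in which 200 features were changed. The changed features were drawn from those with higher counts, so recovery was not measured in features with few counts. In the excitatory sum of 269657 peaks the fit recovered 95% of 4-fold and 67% of 2-fold changes. Positions and genes are from RefSeq for GRCm38.p6. A gene's RNA ratio between classes used 0.5 counts added. No genome of the build was at hand, so words were searched in promoters in place of peaks. Alternatives were RLE and total scaling, no filter, DESeq2 1.42.0, a replicate block, a 1.5-fold threshold, each library left out, and other limits of the rule. Members and gene lists were chosen with earlier results of these data known. Named peaks were the 8 highest in Exc, the highest of up to 4 genes a list and of the 10 genes with the most members, 6 called in each direction by smallest p, 2 a type by ratio, 3 on each side of the 4-fold limit and 3 of the type outside the classes; provisional symbols were passed over. Some peaks that these rules pick are not reported here.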

Additional observations from a re-analysis of the deposited data

Results flagged for a closer look

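In 2 named peaks the strain difference itself differed between Exc-Tafa1 and Exc-Vwa5b1. The strain-by-type term was tested in edgeR with the library as a block, in a fit added after the data were seen. At chr19:23370867-23371278 in Mamdc2 the difference was larger in Exc-Tafa1 by 3.09 on the log2 scale, with an adjusted p of 0.00038. At chr2:96949330-96950110 in Lrrc4c it was larger by 0.89, with an adjusted p of 0.0036. The Lrrc4c peak had 14 and 16.5 CPM in DBA and 11.2 and 9.82 CPM in BL6 in Exc-Tafa1, and 12.1 and 11.9 CPM in DBA and 15.4 and 15 CPM in BL6 in Exc-Vwa5b1, so the strains stood in opposite order in the 2 types, while the excitatory sum had an adjusted p of 0.054. Over all members 20 passed this test, 17 with the larger DBA over BL6 difference in Exc-Tafa1 and 3 with the smaller.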

How the results depend on the processing

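The number of members followed the rule's limits: 8069 at 3-fold, 958 at 6-fold, 5638 at 1 CPM, 1722 at 4 CPM, 7079 with the inhibitory criterion alone and 2320 with the mean over types. It was 3369 to 4237 with 1 library left out. DBA alone gave 4580 and BL6 alone 3254, and 1706 were in both, or 37.2% of the DBA and 52.4% of the BL6 peaks. Totals of chr1 to chr19 alone, chosen after seeing the data, gave 3772. The 297 members called by strain were 94 with DESeq2, all among the 297, 50 with a 1.5-fold threshold and 107 to 528 with 1 library left out, and 245 to 311 under the other settings. Calls summed over single types, 265, were 89 with DESeq2, 78 with the 1.5-fold threshold and 119 to 427 with 1 library left out. In Exc-Tafa1 the 164 were 76, 46 and 68 to 355. The library left out that moved each count most was a BL6 library at the low end and the DBA library numbered 2 at the high end. Genes called in RNA, 13, were 3 with the 1.5-fold threshold and 8 to 12 with 1 library left out. The difference between the median of members and of all peaks stayed between 0.05 and 0.15 on the log2 scale under all settings. The 12 named strain peaks kept their direction in all 120 refits. They were picked for the smallest p in the same libraries, so this does not speak for the other calls. At 1.5-fold, 14.3% of genes with a member were higher in excitatory RNA; members within 2 kb of a gene end alone gave 10.1%. With a 10 kb window 13.2% of members lay at a gene end. Against the peaks with an Exc CPM of 2 or more, members included, 17.7% lay within 2 kb. The library numbers were not taken as pairs, since deviations of same-numbered libraries correlated at -0.03 in ATAC and -0.07 in RNA. With a replicate block 311 members were called in the excitatory sum, 300 calls were made over types and 192 in Exc-Tafa1, and 13 genes in RNA. Depth limits the non-neuronal side most, with a median of 4 counts a member.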
